A study of Mus musculus with 4 samples.

Results

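RNA sequencing values were examined for 10 genes of the endoplasmic reticulum (ER) chaperone and XBP1-ATF6 response in cultured mouse neural progenitors. The genes were chosen by name, as *Hspa5*, *Hsp90b1*, *Calr*, *Pdia4*, *Pdia6*, *Dnajb9*, *Sdf2l1*, *Creld2*, *Herpud1* and *Xbp1*, by a rule that uses no measured value. All 10 were found among the 21091 entries of the deposited files, and all 10 passed the filter used here, a 4-library average of 1 FPKM or more, which 12449 entries passed. FPKM counts sequenced fragments relative to transcript length and to the mapped fragments of the library. The study set 2 embryonic stages against 2 genotypes of the C57BL/6 strain, to look for genes that depend on the transcription factor STAT3. Neural progenitors came from brains at embryonic day 11 (E11) or 14 (E14) and were grown in suspension for 3 days before lysis, so no group was sampled without culture. Each stage had a control (CTL) and a *Stat3* conditional knockout (cKO), and each of these 4 groups was 1 library. The labels call the control WT, while the description of the animals gives Nestin-Cre embryos with 1 floxed and 1 intact *Stat3* allele as controls. In the *Stat3* cKO both alleles are floxed around exons for the SH2 domain, and Cre is driven by a rat Nestin promoter and enhancer, so deletion is limited to cells that have used Nestin. If the sequenced controls had no Cre, genotype and the presence of Cre cannot be told apart. How many embryos went into each library is not given in the sources used here.

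The ER folds proteins that are to be secreted or placed in membranes. BiP, the product of *Hspa5*, and GRP94, the product of *Hsp90b1*, hold unfolded chains, calreticulin binds their sugars, and protein disulfide isomerases form and shuffle their disulfide bonds. When unfolded protein builds up, the sensors IRE1 (gene *Ern1*), ATF6 and PERK (gene *Eif2ak3*) start the unfolded protein response. IRE1 splices *Xbp1* mRNA so that it encodes an active factor, ATF6 is cut in the Golgi to release one, and both factors switch on ER chaperone genes through promoter elements, among them the ER stress element (ERSE). PERK acts through ATF4 and CHOP. FPKM values per gene add the spliced and unspliced forms of *Xbp1*, so splicing was not measured here.

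With 1 library per group there was no replicate spread and no test, and each difference below compares libraries only. A difference is called when the ratio of 2 FPKM values reached 1.5 in either direction, and counts are read against the share of all analysed genes past the same fold. The number of fragments behind each value is unknown. The values that single fragments leave among low genes put the depth of the CTL libraries at 1.07 (E11) and 0.936 (E14) and that of the E11 *Stat3* cKO library at 0.832, with the E14 *Stat3* cKO library taken as 1. *Stat3* itself had 7.41 (CTL) and 6.74 FPKM (*Stat3* cKO) at E11, then 27.6 and 9.55 FPKM at E14, a value that takes in exons outside the floxed part. At E14 the Y-linked *Ddx3y* stood at 25.1 FPKM in *Stat3* cKO against 0.0569 in CTL, and it was at 0 in both E11 libraries. The sex of the embryos therefore cannot be told apart from genotype at E14, nor from stage in *Stat3* cKO. All 6 neural progenitor markers were present, with summed levels from 1400 to 7897 FPKM. The 7 mesenchymal markers summed to 1326 FPKM in CTL against 1171 in *Stat3* cKO at E11, and 15.9 against 10.4 at E14, and none was at 0. The 6 neuron markers summed to 675 FPKM in CTL against 708 in *Stat3* cKO at E11, and 998 against 852 at E14. The 5 endothelial markers summed to between 1.04 and 4.67 and the 5 leukocyte markers to between 0.192 and 2.14. Of 6 erythroid markers 2 were found, and they summed to 22.6 FPKM in E11 CTL and to at most 3.27 in the other libraries.

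Of the 10 genes, 7 had a higher FPKM at E14 than at E11 in both genotypes, with the larger ratio in CTL, although *Hsp90b1* and *Pdia6* turned below 1 in *Stat3* cKO under other scalings. A ratio above 1 between stages was found for 60.5% of all analysed genes in CTL and 53.3% in *Stat3* cKO, and for 86.6% and 77.7% of those averaging 100 FPKM or more, and the median of all genes was likewise larger in CTL, at 0.21 against 0.058 on the log2 scale. At E14, 8 of the 10 had less FPKM in *Stat3* cKO than in CTL, none of them by 1.5-fold, on a background of 60.1% of all analysed genes and 76.0% of those averaging 100 FPKM or more below a ratio of 1. *Herpud1*, a factor of ER-associated degradation, went the other way between stages, from 90.5 FPKM in E11 CTL to 22.4 in E14 CTL. *Sdf2l1*, a cofactor of BiP, had the widest range relative to its lowest library, from 6.55 FPKM in E11 CTL to 34.2 in E14 CTL.

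Promoter sequences were examined for the ERSE, since XBP1 and ATF6 are known to act through it. RefSeq windows on GRCm38.p6, from 250 bases before to 50 bases after the annotated start, were found for all 10 genes. The ERSE was searched as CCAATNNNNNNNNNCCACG and the related ERSE-II as ATTGGNCCACG, both on either strand and only as exact letters. Of 32851 mouse promoter windows, 39 (0.119%) held an ERSE and 12 (0.0365%) an ERSE-II. Among the 10 genes, 5 windows held an ERSE, those of *Hspa5*, *Hsp90b1*, *Calr*, *Pdia6* and *Creld2*, and 1 held an ERSE-II, that of *Herpud1*. No exact match lay in the windows of *Pdia4*, *Dnajb9*, *Sdf2l1* and *Xbp1*. The genes were listed as known targets of this response, so the count describes the list. The shorter run CCACG, which an ERSE contains, was in 9 of the 10 windows and in 32.8% of all windows. The core of the STAT recognition motif, TTCNNNGAA, was in none of the 10 and in 8.3% of all windows, which says only that these letters are absent from these stretches.

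The 250 bases before the start of *Hspa5* (chr2:34771840-34772089, plus strand) and of *Herpud1* (chr8:94386179-94386428, plus strand) are shown because the FPKM of these genes moved in opposite directions between stages. They run 5′ to 3′ in the direction of the gene, with the ERSE of the first and the ERSE-II of the second in capitals.
*Hspa5*: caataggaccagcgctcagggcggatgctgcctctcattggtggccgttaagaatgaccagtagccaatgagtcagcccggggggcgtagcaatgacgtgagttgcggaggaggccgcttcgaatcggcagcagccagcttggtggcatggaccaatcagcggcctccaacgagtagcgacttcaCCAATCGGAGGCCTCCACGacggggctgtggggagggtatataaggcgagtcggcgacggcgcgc
*Herpud1*: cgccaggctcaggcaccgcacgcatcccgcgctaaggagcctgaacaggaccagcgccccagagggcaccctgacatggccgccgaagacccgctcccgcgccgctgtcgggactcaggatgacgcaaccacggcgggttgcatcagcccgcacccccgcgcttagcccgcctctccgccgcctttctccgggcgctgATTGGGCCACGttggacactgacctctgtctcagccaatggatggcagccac

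The ERSE matches of the other 4 genes are shown with up to 20 flanking bases, in the direction of the gene. The search fixed their spacing and outer letters, so only the inner letters were free to differ. Capitals mark the match, which begins with CGTGG where it lies on the opposite strand. The stretches in capitals are chr8:84847075-84847093 for *Calr*, chr10:86705638-86705656 and chr10:86705533-86705551 for *Hsp90b1*, chr12:17266491-17266509 for *Pdia6* and chr15:88819520-88819538 for *Creld2*, with *Calr* and *Hsp90b1* on the minus strand.
*Calr*: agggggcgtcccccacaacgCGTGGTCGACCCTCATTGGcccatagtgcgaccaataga
*Hsp90b1*, first match: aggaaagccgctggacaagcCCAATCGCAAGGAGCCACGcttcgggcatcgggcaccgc
*Hsp90b1*, second match: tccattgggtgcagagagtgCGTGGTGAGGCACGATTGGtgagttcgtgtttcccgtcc
*Pdia6*: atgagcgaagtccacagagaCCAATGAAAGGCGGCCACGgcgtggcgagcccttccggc
*Creld2*: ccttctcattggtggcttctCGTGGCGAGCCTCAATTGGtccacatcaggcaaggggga

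**Figure D1:**
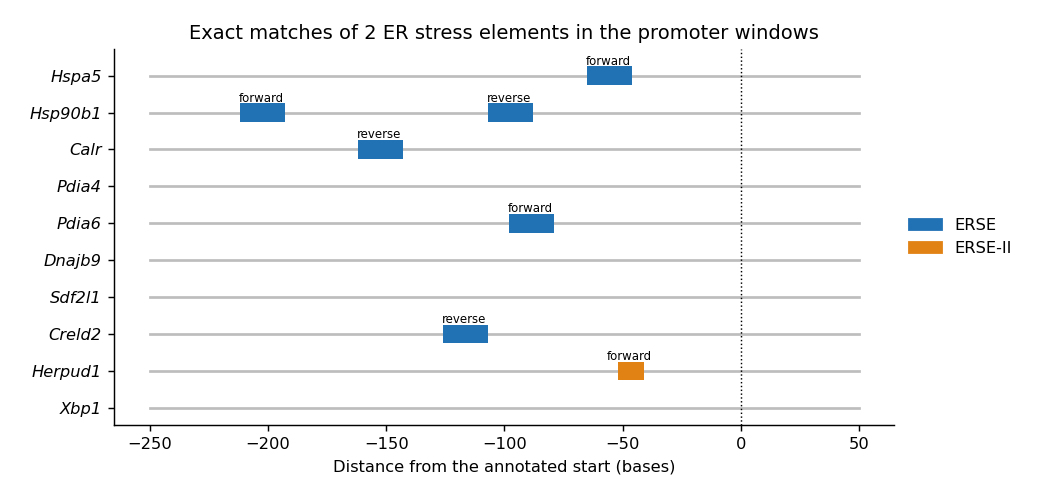
Exact ERSE (blue) and ERSE-II (orange) matches in the promoter windows of the 10 genes, by distance in bases from the annotated start, with the strand of each match written above it. *Hsp90b1* holds 2 ERSE matches, *Hspa5*, *Calr*, *Pdia6* and *Creld2* hold 1 each, *Herpud1* holds 1 ERSE-II, and 4 windows hold neither.

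In *Hspa5* the match ran from 65 to 47 bases before the start, and in *Pdia6* from 98 to 80. In *Creld2* it ran from 126 to 108 bases before the start and in *Calr* from 162 to 144, both on the opposite strand. *Hsp90b1* had one match from 212 to 194 bases before the start and another, on the opposite strand, from 107 to 89. The ERSE-II of *Herpud1* lay closest to its start, from 52 to 42 bases before it.

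*Xbp1*, the transcription factor of the list, is placed on chromosome 11 from 5420643 to 5425996. Here and below these positions are as the files list them. The submitters' processing notes name both mm8 and mm9, and which of them applies is not stated. *Xbp1* had 27.9 (CTL) and 27.0 FPKM (*Stat3* cKO) at E11, then 30.7 and 24.4 FPKM at E14. Its highest library was 1.26 times its lowest, the narrowest range of the 10 genes. Between stages its log2 ratio in CTL was 0.14, and this turned to -0.076 once all genes were centred on a median of 0 and to -0.23 with upper-quartile scaling, so its direction depended on the scaling.

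*Hspa5*, on chromosome 2 from 34627609 to 34632049, encodes BiP, the Hsp70 chaperone of the ER lumen that also keeps the 3 stress sensors silent. It had 142 FPKM in CTL against 157 in *Stat3* cKO at E11, and 257 against 188 at E14. E14 CTL was the highest library, and its level was 1.82 times that of E11 CTL. In *Stat3* cKO the same step was 1.20-fold. Its genotype ratio, *Stat3* cKO over CTL, was 1.11 at E11 and 0.732 at E14.

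*Hsp90b1*, on chromosome 10 from 86153585 to 86168189, encodes GRP94, the ER form of Hsp90. Its levels at E11 were 145 FPKM in CTL and 162 in the *Stat3* cKO library, and those at E14 were 192 and 164. E14 CTL was again the highest. The 2 *Stat3* cKO libraries were nearly equal, with a log2 ratio of E14 to E11 of 0.014. It was -0.044 with the median of all genes at 0 and -0.13 with upper-quartile scaling. The ratio in CTL was 0.41, and 0.20 and 0.041 under the same 2 scalings. *Hspa5* stood at 0.98 times *Hsp90b1* in E11 CTL and at 1.34 times in E14 CTL on the FPKM scale.

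*Calr*, on chromosome 8 from 87365986 to 87370830, encodes calreticulin, a lectin chaperone that also stores calcium. It had 141 (CTL) and 176 FPKM (*Stat3* cKO) at E11, then 251 and 215 FPKM at E14. Its 2 E14 libraries were both above its E11 libraries. The genotype ratio was 0.32 on the log2 scale at E11 and -0.23 at E14.

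The 2 disulfide isomerases had a similar order of levels. *Pdia4* (ERp72), at 47746139 to 47763511 of chromosome 6, had 73.4 FPKM in CTL against 79.1 in *Stat3* cKO at E11, and 110.0 against 91.5 at E14. *Pdia6* (P5), which attenuates the stress sensors by acting on their disulfides, had 126 and 135 FPKM at E11, then 199.6 and 145 at E14. Within a library *Pdia6* was from 1.59 to 1.81 times *Pdia4*. *Pdia4* missed the 1.5-fold line between stages in CTL, at 1.499-fold, with a log2 ratio of 0.58, and *Pdia6* passed it, with 0.67. The files list *Pdia6* on chromosome 12 from 17273400 to 17331536, a span that overlaps the entry for *Atp6v1c2*, and reads from the shared stretch cannot be told apart here.

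*Dnajb9* and *Sdf2l1* are cofactors of BiP. *Dnajb9* (ERdj4), on chromosome 12 from 45306883 to 45311055, helps BiP to bind IRE1 and is a known target of XBP1. It was the lowest of the 10 genes in 3 of the 4 libraries, with 6.94 (CTL) and 6.80 FPKM (*Stat3* cKO) at E11, then 5.04 and 5.47 FPKM at E14. Both E14 libraries lay below both E11 libraries, the opposite order to *Hspa5*, and the log2 ratios of E14 to E11 were -0.46 in CTL and -0.32 in *Stat3* cKO. *Hspa5* was 20.4 times *Dnajb9* in E11 CTL and 51.1 times in E14 CTL.

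*Sdf2l1*, on chromosome 16 from 17130230 to 17132476, acts with the J proteins of the ER to keep clients soluble. It had 6.55 FPKM in CTL against 12.2 in *Stat3* cKO at E11, and 34.2 against 28.6 at E14. Its level thus rose past the fold line with stage in both genotypes, by 5.22-fold in CTL and 2.34-fold in *Stat3* cKO. Between genotypes it was 1.87 times higher in *Stat3* cKO at E11 and 0.838 times CTL at E14. It moved from percentile 33.9 of all analysed genes in E11 CTL to percentile 76.4 in E14 CTL.

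*Creld2*, on chromosome 15 from 88650075 to 88657111, encodes a secreted and ER-resident stress protein with disulfide isomerase activity. Its levels were 14.0 (CTL) and 16.1 FPKM (*Stat3* cKO) at E11, then 30.7 and 22.1 FPKM at E14. At E14 it had the lowest genotype ratio of the 10 genes, 0.722. In CTL it was 2.18 times higher at E14 than at E11, and in *Stat3* cKO 1.37 times.

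*Herpud1*, on chromosome 8 from 96910399 to 96919258, encodes a membrane protein that organises the ubiquitin ligase complex of ER-associated degradation. Besides XBP1 and ATF6, the PERK-ATF4 arm is known to induce it. It had 90.5 FPKM in CTL against 61.6 in *Stat3* cKO at E11, and 22.4 against 22.7 at E14. Both E11 libraries were far above both E14 libraries, which hardly differed. The step from E11 to E14 was a ratio of 0.248 in CTL against 0.369 in *Stat3* cKO, and the genotype ratio at E11 was 0.681. On the FPKM scale *Hspa5* was 1.57 times (CTL) and 2.54 times (*Stat3* cKO) *Herpud1* at E11, then 11.5 and 8.29 times at E14.

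**Figure D2:**
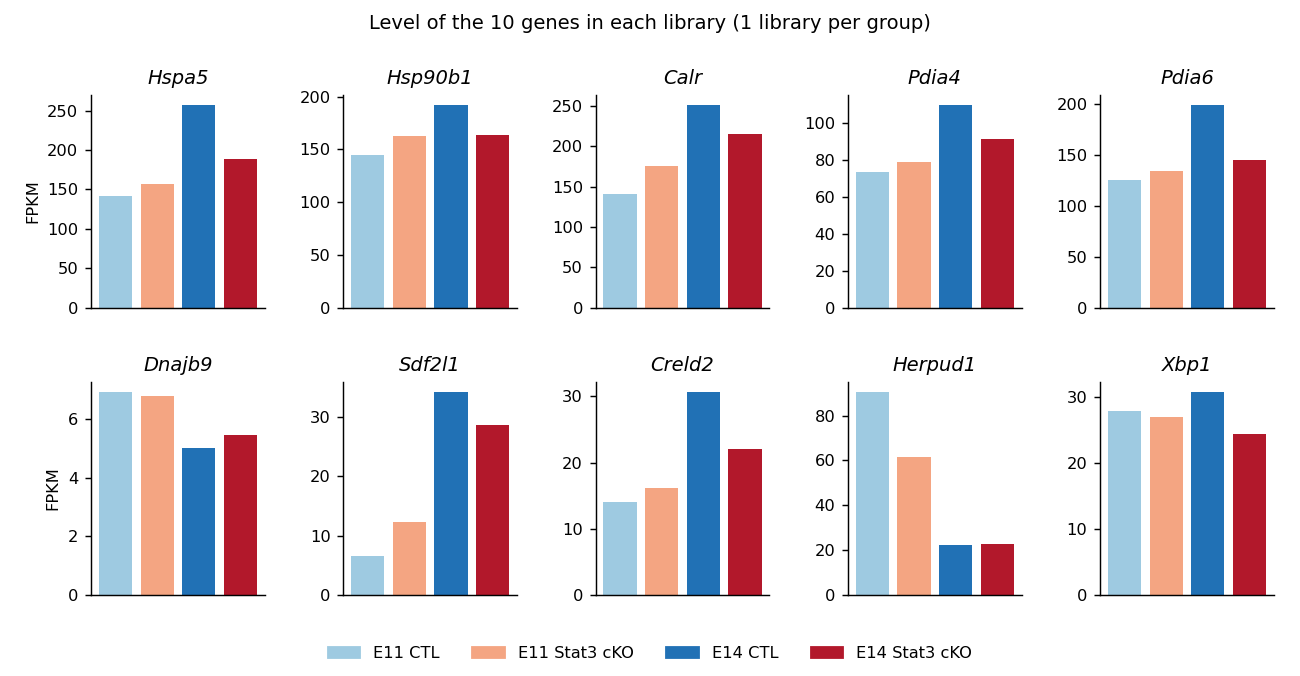
Level in FPKM (vertical axes, each starting at 0) of the 10 genes in the 4 libraries, 1 bar per library, with no error bars because each group has 1 library. E14 CTL holds the highest bar for 8 genes, and E11 CTL holds it for *Dnajb9* and *Herpud1*.

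In the order of levels, *Hsp90b1*, *Hspa5*, *Calr* and *Pdia6* led in E11 CTL, between 126 and 145 FPKM. In E14 CTL the leading genes were *Hspa5* and *Calr*, at 257 and 251 FPKM, then *Pdia6* and *Hsp90b1*, at 199.6 and 192. Neighbours in these orders cannot be separated, since no spread was measured. These 4 genes lay between percentiles 94.99 and 96.7 of the analysed genes in each library, and *Pdia4* lay between 92.0 and 92.5. The 10 genes together summed to 772 (CTL) and 833 FPKM (*Stat3* cKO) at E11, then 1134 and 907 FPKM at E14. As a share of all FPKM in the library, which summed to between 806587 and 1461770, they made up 0.0814% (CTL) and 0.103% (*Stat3* cKO) at E11, then 0.0813% and 0.0621% at E14. On that scale CTL was level between the stages and *Stat3* cKO was lower at E14, so the direction of the sum with stage depended on the scaling.

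The comparison of genotypes at E14 asks which of these genes depend on STAT3 at the stage at which *Stat3* FPKM differed. None of the 10 genes was at least 1.5-fold higher in *Stat3* cKO, against 5.82% of all analysed genes, and none was at least 1.5-fold lower, against 7.67%. *Hspa5*, *Pdia6* and *Creld2* came nearest, with log2 ratios of -0.45, -0.46 and -0.47. They were followed by *Xbp1* (-0.34), *Pdia4* (-0.27), *Sdf2l1* (-0.26), *Hsp90b1* and *Calr* (each -0.23). Higher values in *Stat3* cKO were found for *Dnajb9* (0.12) and *Herpud1* (0.021). The median log2 ratio of the 10 genes was -0.26, that of all analysed genes was -0.079, and that of the most abundant genes, those averaging 100 FPKM or more, was -0.17. No sign among the 10 genes changed at this stage with the median of all genes at 0, with upper-quartile scaling or with either pseudocount, and with upper-quartile scaling, which moved the median of all genes by 0.15, the median of the 10 was -0.11. The shares of all genes at 1.5-fold were then 9.07% higher and 4.42% lower, and again none of the 10 passed. All 6 neuron markers likewise had ratios below 1 at E14 (median -0.32 on the log2 scale), and 5 of the 6 neural progenitor markers were higher, with a median of 0.28. Of the 7 mesenchymal markers 5 were below 1 (median -0.83), 4 of them by at least 1.5-fold, and 1 was higher by that margin. Their sums were 15.9 FPKM in CTL against 10.4. The part of these cells in the values of the 10 genes was not tested. In such bulk RNA, fewer cells of a type and less RNA per cell cannot be told apart.

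At E11, where *Stat3* FPKM differed little, 1 of the 10 genes was at least 1.5-fold higher in *Stat3* cKO, against 2.18% of all genes, and none was lower by that margin, against 3.66%. The gene was *Sdf2l1*. Its log2 ratio was 0.90, and those of the other 6 genes above 0 ran from 0.10 for *Pdia6* to 0.32 for *Calr*. *Herpud1* was the lowest, at -0.55, and passed the fold line when all genes were centred on a median of 0 (-0.61) and with upper-quartile scaling (-0.62). With the latter, 1.33% of all genes were higher and 4.62% lower. The median of the 10 genes was 0.13, that of all genes 0.059 and that of the most abundant genes 0.11. Of the 10 genes 7 were above a ratio of 1, against 61.8% of all genes and 69.5% of the most abundant. All 6 neural progenitor markers were above 1 as well (median 0.17 on the log2 scale), 2 of them past 1.5-fold. That count was 0 under both other scalings, and 1 of the 6 was below 1 with upper-quartile scaling. Among the 6 neuron markers 4 were below 1 (median -0.15), and the erythroid sum was 22.6 FPKM in CTL against 3.27. The part of these cells was not tested.

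From E11 to E14 in CTL, 5 of the 10 genes were at least 1.5-fold higher, namely *Hspa5*, *Calr*, *Pdia6*, *Sdf2l1* and *Creld2*. The same fold was reached by 30.3% of all genes and by 55.7% of those averaging 100 FPKM or more. Only *Herpud1* of the 10 was at least 1.5-fold lower, against 18.9%. The median log2 ratio was 0.63 for the 10 genes, 0.21 for all genes and 0.67 for the most abundant genes, a level of 100 FPKM that *Hspa5*, *Hsp90b1*, *Calr* and *Pdia6* exceed in every library. A ratio above 1 was found for 8 of the 10, against 60.5% of all genes and 86.6% of the most abundant. Upper-quartile scaling lowered the median of all genes by 0.37, and then 2 of the 10 genes passed upward, *Sdf2l1* and *Creld2*, and 2 downward, *Herpud1* and *Dnajb9*. The shares of all genes were then 15.9% higher and 30.2% lower. The mesenchymal markers moved with stage, all 7 of them lower at E14 in both genotypes. In CTL 5 of the 6 neural progenitor markers were higher at E14 (median 1.05), as were 5 of the 6 neuron markers (median 0.51). In *Stat3* cKO these were 5 of 6 (median 1.04) and 4 of 6 (median 0.17). The part of any of these cells in the values of the 10 genes was not tested.

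In *Stat3* cKO the same step in age took 1 of the 10 genes past 1.5-fold upward, *Sdf2l1*, against 21.6% of all genes, and 1 downward, *Herpud1*, against 20.1%. The median log2 ratio was 0.16 for the 10 genes, 0.058 for all genes and 0.39 for the most abundant genes. *Hspa5*, *Calr* and *Pdia4* had log2 ratios of 0.26, 0.29 and 0.21. *Pdia6* had 0.11, which was -0.041 with upper-quartile scaling, where 16.3% of all genes were higher and 25.1% lower. Both stage comparisons and both genotype comparisons draw on the same 4 libraries, so that 1 library, such as E14 CTL, enters 2 of them.

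**Figure D3:**
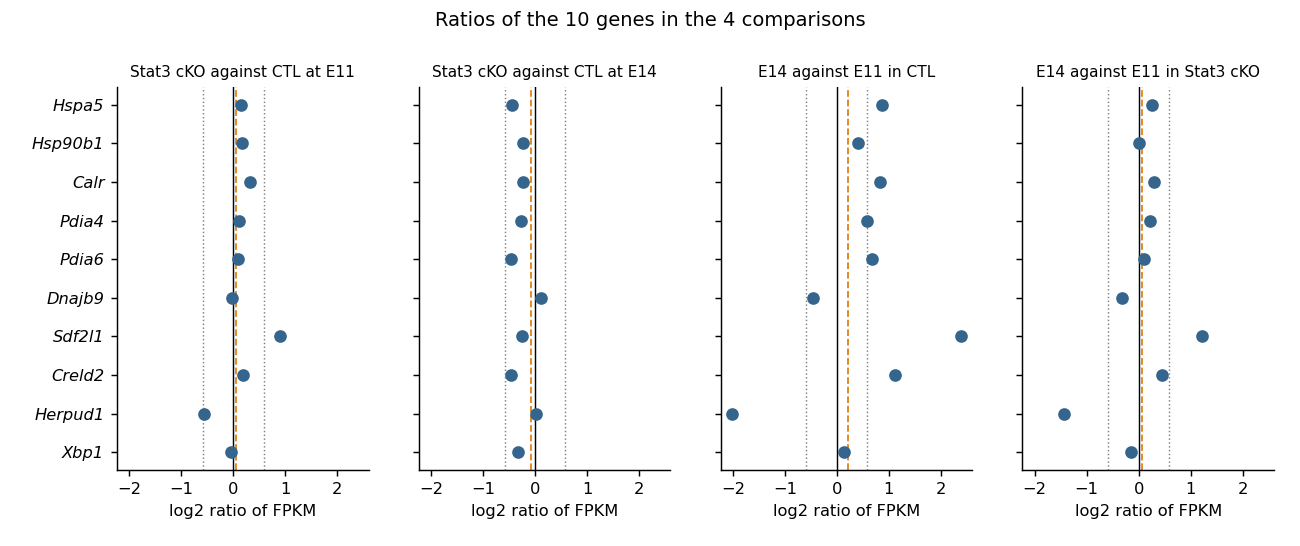
Log2 ratio of FPKM for the 10 genes (points) in the 4 comparisons, with the 1.5-fold lines dotted and the median of all analysed genes dashed in orange. At E14 all points lie inside the 1.5-fold lines, whereas from E11 to E14 in CTL *Sdf2l1* stands at 2.38 and *Herpud1* at -2.01.

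The rest of the pathway was read from 8 lists of ER genes, 128 genes in all, of which 127 were found and 125 analysed. At E14, 1 of these 125 was at least 1.5-fold higher in *Stat3* cKO and 3 were lower, against 5.82% and 7.67% of all genes. A ratio below 1 was found for 97 of them, or 77.6%, against 60.1% of all genes and 76.0% of the most abundant. The list counts that follow are to be read against these shares. Many of the 125 average less than 100 FPKM, so the share of the most abundant genes is not matched to their level. Their median log2 ratio was -0.16, which was -0.0045 with upper-quartile scaling. The gene above the line was *Fkbp7*, an ER prolyl isomerase that acts on procollagen folding, at 2.62 FPKM in CTL against 4.02 in *Stat3* cKO. Below the line were *Fkbp11*, another ER prolyl isomerase, at 8.99 FPKM in CTL against 3.54, the KDEL receptor *Kdelr3*, which returns escaped chaperones from the Golgi, at 7.21 against 4.21, and *Srp54a*, of the signal recognition particle, at 2.37 against 1.53. The call of *Srp54a* ended when all genes were centred on a median of 0 (-0.55) and with upper-quartile scaling (-0.48), and with the latter 66 of the 125 had a ratio below 1. Among the other chaperones and Hsp70 cofactors the median was -0.11, with 12 of 18 below 0.

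Of the other 15 disulfide isomerases and oxidases, 12 were lower in *Stat3* cKO at E14 and none reached 1.5-fold, with *Txndc5* lowest at -0.48 and *Qsox1* highest at 0.26. Of the 10 lectin and glycan genes 8 were lower, from *Mogs*, the first glucosidase to trim glycans, at -0.50 to *Prkcsh* at 0.096. In ER-associated degradation 15 of 20 were lower, from *Ube2g2* at -0.39 to *Syvn1*, the ubiquitin ligase that Herpud1 protein works with, at 0.56. The translocon and signal peptidase genes had 19 of 22 lower, with *Spcs2* highest at 0.20. Among the oligosaccharyltransferase subunits 9 of 11 were lower, from *Stt3a* at -0.52 to *Magt1* at 0.11, and of the transport genes 20 of 23 were, with *Kdelr1* highest at 0.24. The sensors and their proteases split, with 4 of 6 above 0, from *Mbtps2* at -0.41 to *Atf6* at 0.36.

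*Atf6*, which encodes one of the 2 factors the list is named for, had 10.8 FPKM in CTL against 5.96 in *Stat3* cKO at E11, and 4.61 against 5.90 at E14. Its high library was E11 CTL, as it was for *Herpud1*. It is the only sensor gene past 1.5-fold between genotypes at E11 among the 6 analysed, with a log2 ratio of -0.85.

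**Figure D4:**
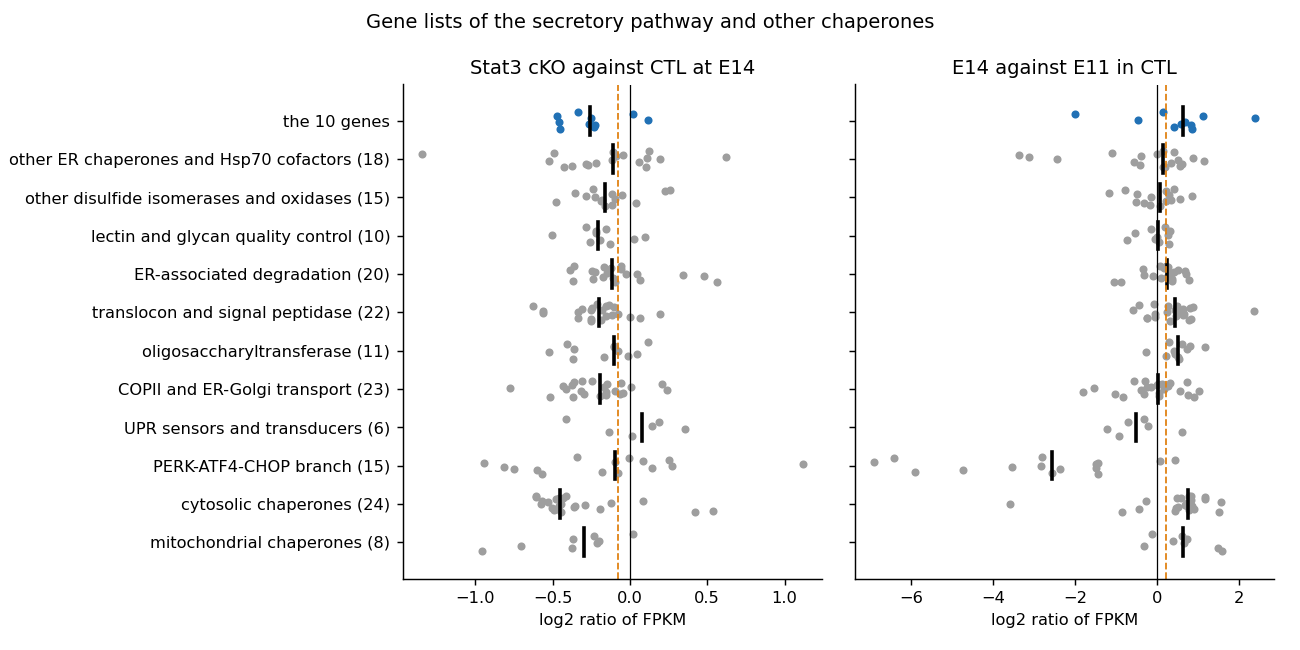
Log2 ratio of FPKM for each gene (points) and the median (black bar) of each list, for *Stat3* cKO against CTL at E14 (left) and E14 against E11 in CTL (right), with the median of all analysed genes dashed in orange and the number of genes in brackets. The cytosolic chaperones have the lowest median on the left, -0.45, and the PERK-ATF4-CHOP branch has the lowest on the right, -2.56.

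The PERK-ATF4-CHOP branch was set beside *Herpud1*. Of its 15 genes, 13 were at least 1.5-fold lower at E14 in the CTL pair and 11 in the *Stat3* cKO pair, against 18.9% and 20.1% of all genes, and 2 were at least 1.5-fold higher in the *Stat3* cKO pair, against 21.6%, with medians of -2.56 and -1.92. Those 2 were *Psat1* (0.70) and *Phgdh* (1.03), enzymes of serine synthesis, named after their values were seen, and *Psat1* was at 0.55 with upper-quartile scaling, under the 1.5-fold line. The 7 mesenchymal markers were lower in the same comparisons, with medians of -6.46 and -6.99, and their part in these values was not tested. At E11, 9 of the 15 passed 1.5-fold downward in *Stat3* cKO, against 3.66% of all genes. In the same comparison the erythroid sum was lower, at 3.27 FPKM against 22.6, and all 6 neural progenitor markers were above 1. Of the 7 mesenchymal markers 4 were below 1, 1 of them by at least 1.5-fold, and 3 were above 1 (median log2 ratio -0.079). The part of these cells in the values was not tested. At E14 *Cebpb* (-0.95), *Atf3* (-0.81), *Asns* (-0.75) and *Chac1* (-0.60) were lower, against 7.67%, and *Ddit4* (1.12) was higher, against 5.82%. The call of *Chac1* ended under both scalings (-0.52 and -0.45). *Atf4* had 310.4 (CTL) and 208 FPKM (*Stat3* cKO) at E11 and 113 and 76.4 FPKM at E14, and *Ddit3*, which encodes CHOP, had 93.3 and 32.2, then 15.9 and 15.0 FPKM. Both were picked after their values were seen. *Herpud1* shared with them the highest level in E11 CTL and the second highest in E11 *Stat3* cKO. Of the other 9 genes in the list, *Dnajb9* alone had this order of the E11 libraries with both E14 libraries below. The share of all analysed genes with this order was not counted, so nothing is concluded from it.

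**Figure D5:**
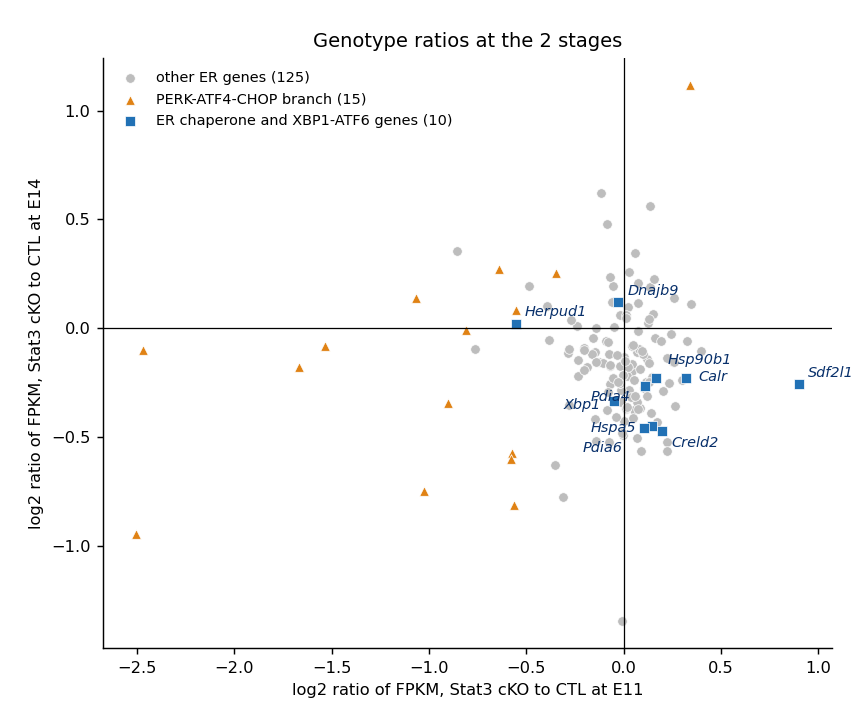
Genotype ratio, *Stat3* cKO over CTL on a log2 scale, at E11 (horizontal) and at E14 (vertical), for the 10 genes (blue squares, named), 125 other ER genes (grey) and 15 genes of the PERK-ATF4-CHOP branch (orange triangles). *Sdf2l1* stands apart to the right at 0.90, and *Herpud1* lies to the left at -0.55, among the orange points.

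Genes outside the list that carry an ERSE gave a further view, added after the values had been seen. The 39 windows belong to 37 symbols, of which 15 were analysed, the 5 genes above and 10 others. At E14 all 5 were lower in *Stat3* cKO, with a median of -0.45, and 7 of the 10 others were, with a median of -0.16. Of all genes 60.1% were lower, as were 76.0% of those averaging 100 FPKM or more, with a median of -0.17. From E11 to E14 in CTL all 5 were higher, with a median of 0.83, while the 10 others split evenly, with a median of -0.14. Of all genes 60.5% were higher, and of the most abundant, to which 4 of the 5 belong, 86.6% were, with a median of 0.67. Chosen by their role after the values were seen, these others included the ER genes *Canx* (0.29), *Dnajc3* (0.61) and *Syvn1* (-1.05). Of the ERSE-II genes other than *Herpud1*, 7 were analysed, with 5 of 7 higher between stages in CTL (median 0.37) and 6 of 7 lower in *Stat3* cKO at E14 (median -0.33).

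The genes whose 4 values most resembled the median pattern of the 10 were sought outside all lists where the average was 5 FPKM or more, by the distance between log2 values centred on each gene's mean over the 4 libraries. The median pattern was -0.25 (CTL) and -0.13 (*Stat3* cKO) at E11, then 0.36 and 0.023 at E14. The nearest were *Pstk* (distance 0.027), *Mrpl19* (0.033), *Mrgbp* (0.034), *Fam20b* (0.038) and the joined entry that includes *Moap1* (0.038). Of the 10 genes, *Pdia4* lay nearest to their own median pattern, at 0.054, and *Sdf2l1* and *Herpud1* lay farthest, at 1.53 and 2.18.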

How the data were processed

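Neural progenitors of 4 groups, 1 library each, were sequenced with Illumina library protocols. The authors checked reads with FastQC and ran the TopHat-Cufflinks workflow, and the deposited values are FPKM, with no read counts. The submitters' processing notes name Bowtie 0.12.2, mm8 and mm9, and the annotation is not given in the sources used here. Whether libraries were scaled further is not given, and entries that join overlapping genes cannot be separated.

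No deposited value was altered. An average of 1 FPKM was the minimum for a gene to be analysed, as plain ratios without a pseudocount, and genes at 0 in either library had no ratio. The call was 1.5-fold. No test was possible with 1 library per group, so no error, interval or p-value is given. The 10 genes, the 8 ER lists, the 3 other lists and the 6 marker lists were chosen by symbol with earlier results of these data known. Named from each list were genes past 1.5-fold at E14, or otherwise its highest and lowest genes, and others are marked where they appear.

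Promoter windows came from RefSeq (GRCm38.p6), a different build from the listed positions, which were not converted. Protein sequences were not used here. The steps were checked on simulated data with known folds and planted motifs. Alternatives were pseudocounts of 1 and 0.1, the median of all genes set to 0, upper-quartile scaling, a minimum mean of 5 FPKM or none, and 2-fold. Python 3.11.15, numpy 2.4.6, pandas 2.3.3 and matplotlib 3.10.9 were used.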

Additional observations from a re-analysis of the deposited data

Results flagged for a closer look

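For 9 of the 10 genes the ratio of *Stat3* cKO to CTL lay on opposite sides of 1 at the 2 stages, and each is given as the log2 ratio at E14 minus that at E11. The difference was not tested, since each ratio rests on 1 library per group, and most of the ratios are small. *Sdf2l1* differed most, by -1.16. *Creld2* (-0.67), *Hspa5* (-0.60), *Pdia6* (-0.56), *Calr* (-0.55), *Hsp90b1* (-0.40) and *Pdia4* (-0.37) were also higher in *Stat3* cKO at E11 and lower at E14. The reverse held for *Herpud1* (0.57) and *Dnajb9* (0.15). Such opposite sides were also common elsewhere, in 55.4% of 12419 genes and in 66.3% of the 818 averaging 100 FPKM or more, and the order seen for the first 7 genes was that of 38.7% and 56.0% of them.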

How the results depend on the processing

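Each gene's ratio was recomputed under 6 alternatives, 240 values in all. The sign changed in 5 of them, 4 calls were lost and 4 were gained, all 13 under the 2 scalings between libraries. The 2 alternatives that change only the filter could not move a ratio, since all 10 genes average 5 FPKM or more. Genotypes were compared within each stage and stages within each genotype, and no paired test was run. Because each group has 1 library, leaving out a library was not possible. The depth of the libraries in fragments is unknown, so the counting error of low genes such as *Dnajb9* and *Sdf2l1* cannot be given.

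For the 10 genes, setting the median of all genes to 0 gave a median of 0.41 from E11 to E14 in CTL with 2 genes lower, and 1 gene lower in *Stat3* cKO at E11. Upper-quartile scaling gave medians of -0.11 between genotypes at E14, 0.26 between stages in CTL and 0.010 in *Stat3* cKO, with 2 genes higher and 2 lower between stages in CTL and 1 lower between genotypes at E11. At 2-fold, 2 genes were higher between stages in CTL and 0 were higher in *Stat3* cKO at E11.

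When all genes were centred on a median of 0, the shares of all genes at 1.5-fold were 7.28% higher and 5.68% lower between genotypes at E14, 1.46% and 4.50% at E11, and 21.01% and 24.6% between stages in CTL.

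For the other ER lists, setting the median of all genes to 0 gave medians of -0.047 between genotypes at E11 and -0.012 between stages in CTL, with 10 genes higher and 26 lower there and 2 higher between genotypes at E14. Upper-quartile scaling gave medians of -0.057 at E11 and -0.0045 at E14 between genotypes, and of -0.17 in CTL and -0.16 in *Stat3* cKO between stages. The counts were then 3 higher between genotypes at E14, 4 higher and 37 lower between stages in CTL, and 3 higher between stages in *Stat3* cKO. At 2-fold the counts were 0 lower at E11, 0 higher and 1 lower at E14, 4 higher and 10 lower between stages in CTL, and 2 higher and 10 lower in *Stat3* cKO. A pseudocount of 1 gave 0 higher between genotypes at E14 and no filter gave 2, and a minimum of 5 FPKM gave a median of 0.055 between stages in *Stat3* cKO.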

Other observations

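Chaperones outside the ER were read from 2 further lists. Of 24 cytosolic chaperones analysed, 21 had less FPKM in *Stat3* cKO at E14, 2 of them by at least 1.5-fold, a share near the 7.67% of all genes at that fold. A ratio below 1 was found for 60.1% of all genes and for 76.0% of those averaging 100 FPKM or more. The list had a median log2 ratio of -0.45 against -0.26 for the 10 ER genes and -0.079 for all genes. With upper-quartile scaling these medians were -0.30, -0.11 and 0.074. In this comparison all 6 neuron markers were below 1 (median -0.32), as were 5 of the 7 mesenchymal markers (median -0.83). Of the 6 neural progenitor markers 5 were above 1 (median 0.28), and the part of these cells was not tested. The 8 subunits of CCT, the ring that folds actin and tubulin, ran from -0.61 to -0.42, and *Cct8*, at 271 FPKM in E14 CTL and 177 in the E14 *Stat3* cKO library, and *Cct6a* (log2 ratio -0.61) passed 1.5-fold. Both calls ended when all genes were centred on a median of 0 (each -0.53) and with upper-quartile scaling (each -0.46). From E11 to E14 in CTL, 7 of the 8 were at least 1.5-fold higher, against 30.3% of all genes and 55.7% of those averaging 100 FPKM or more, as all 8 do. The count was 5 of 8 when all genes were centred on a median of 0 and 2 of 8 with upper-quartile scaling. In *Stat3* cKO none was, against 21.6% and 36.8%. Between stages in CTL the mesenchymal markers were lower (median -6.46) and most neural progenitor (median 1.05) and neuron markers (median 0.51) were higher, and their part in these values was not tested. The subunits were singled out from the list after their values were seen. Among the 8 mitochondrial chaperones 2 passed 1.5-fold downward in *Stat3* cKO at E14, against 7.67% of all genes. These were *Hspd1*, at 429 FPKM in CTL against 221 in *Stat3* cKO, and *Hspa9*, at 238 against 146, and the call of *Hspa9* ended with upper-quartile scaling (-0.55).

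Some ER genes known to help fold collagen were lower at E14, as the mesenchymal markers were, and 4 of them were picked after their values were seen. *Serpinh1*, the collagen chaperone HSP47, had 554 (CTL) and 395 FPKM (*Stat3* cKO) at E11, then 102 and 117 FPKM at E14. *Fkbp10*, which also serves collagen, had 26.6, 23.8, 2.57 and 2.49 FPKM in the same order. With *Fkbp7* and *Fkbp14*, all 4 were at least 1.5-fold lower at E14 in both genotypes, where 18.9% (CTL) and 20.1% (*Stat3* cKO) of all genes were, with medians of -2.79 in CTL and -2.08 in *Stat3* cKO. Other ER genes that also act on collagen, likewise picked after their values were seen, were not called. *Ppib* had log2 ratios between stages of 0.41 in CTL against 0.24 in *Stat3* cKO, and *P4hb* had 0.068 and -0.22, of which the first turned to -0.15 and -0.30 under the 2 other scalings. The part of mesenchymal cells in these values was not tested.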
